A study of Mus musculus with 7 samples.

Results

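A set of 10 imprinted genes that act on growth, each expressed mainly from 1 parental chromosome, was followed in skeletal stem cells sorted from mouse femurs. The genes are H19, Igf2, Dlk1, Mest, Cdkn1c, Plagl1, Grb10, Meg3, Peg3 and Ndn, the rows of the count table whose Ensembl identifier carries one of these symbols, and they make up 10 of the 42687 genes in the table. Cells with CD24 and CD29 on their surface were sorted by flow cytometry from digested femurs, and their RNA was sequenced in bulk. The HFD group (3 libraries, numbers 2 to 4) came from mice fed a high fat diet with 60% fat, and the LFD group (4 libraries, numbers 1 to 4) from mice fed a control low fat diet with 10% fat. All mice were C57BL/6, were 3 months old when the diets began and ate them for 4 weeks. Nothing in the labels says whether a library is 1 mouse or a pool, or that the libraries came from separate mice, so p-values measure only the spread between these libraries, which may be technical in part.

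An imprinted gene is silenced by DNA methylation or a noncoding RNA on the copy from 1 parent, so that the copy from the other parent supplies the RNA. Igf2, Dlk1, Mest, Plagl1, Peg3 and Ndn are expressed from the father's copy, and most of them promote growth before birth. H19, Cdkn1c, Meg3 and, in most tissues outside the brain, Grb10 are expressed from the mother's copy, and H19, Cdkn1c and Grb10 hold growth back. In mice, many of them are high in fetal tissues and fall after birth as growth slows, and several stay active in stem and progenitor cells. These counts do not tell the parental copies apart.

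Total counts ranged from 20885803 to 24681838 in HFD and from 17391613 to 23172976 in LFD. Xist had 0 counts in each HFD library and 257 to 526 in each LFD library, while 4 Y-linked genes together had 2494 to 3405 counts in HFD and 1 to 5 in LFD, so diet and the sex of the animals cannot be told apart in any comparison below. Itgb1, which encodes CD29, measured 380 to 497 CPM in HFD and 368 to 488 CPM in LFD, and Cd24a measured 774 to 3004 CPM in HFD and 1524 to 4852 CPM in LFD. CPM are counts scaled to a common library size with TMM factors. Cartilage markers (10 of 10 detected) summed to 36202 to 61666 CPM in HFD and 22437 to 47170 CPM in LFD. Osteoblast markers summed to 26661.5 to 41740 CPM in HFD and 12824 to 29247 CPM in LFD. Skeletal markers were thus present, while neither list is one of stem cell markers. Erythroid markers (9 of 10 in the table) summed to 22159 to 107180 CPM in HFD and 92083 to 157847 CPM in LFD. Red cell RNA was thus present as well. Cd24a and the erythroid sum were both lowest in HFD 2 and highest in LFD 3. The part of red cell RNA in the Cd24a values was not tested. The sums of other marker lists separated the diets without overlap. Granulocyte markers summed to 8407 to 16389 CPM in HFD and 953 to 5391 CPM in LFD, monocyte and macrophage markers to 105 to 131 CPM in HFD and 3.90 to 72.4 CPM in LFD, and marrow stroma markers to 1808 to 3070 CPM in HFD and 546 to 796 CPM in LFD. Most members of each of these lists were split as its sum was. Those that overlapped were Mpo, Elane, Adgre1, Mrc1, C1qa, C1qb, Pdgfra and Vcam1. Mpo, for instance, measured 72.4 to 171 CPM in HFD and 0.0626 to 183 CPM in LFD. The largest part of the marrow stroma sum in HFD was Cxcl12, at 1118 to 1986 CPM against 8.51 to 207 CPM in LFD. Ptprc, the leukocyte gene for CD45, measured 49.6 to 55.9 CPM in HFD and 0.117 to 24.8 CPM in LFD. In such bulk libraries fewer cells of a type and less RNA per cell cannot be told apart. LFD 3 stood apart in gaps: 214 tested genes had 0 counts there and at least 20 counts in each of the other libraries, against 1 to 20 such genes in the HFD libraries and 60, 125 and 5 in LFD 1, LFD 2 and LFD 4.

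The start regions of 5 genes are shown, because the silenced copy of an imprinted gene is often methylated at CpG pairs near its start. They are those of the genes with the most counts (Peg3, Grb10), the gene with the largest positive difference between the diets (Plagl1), and the genes with the lowest level per exon length (Dlk1, Meg3). Each line runs 5′ to 3′ from 250 bases before to 50 bases after a RefSeq start in build GRCm38.p6 (mm10), with every CpG pair in capitals. Of the 10 genes 8 had a start region in the RefSeq table, and H19 and Cdkn1c did not. Methylation was not measured, so the capitals do not mark sites known to be methylated.
Peg3 (chr7:6730370-6730669, minus strand): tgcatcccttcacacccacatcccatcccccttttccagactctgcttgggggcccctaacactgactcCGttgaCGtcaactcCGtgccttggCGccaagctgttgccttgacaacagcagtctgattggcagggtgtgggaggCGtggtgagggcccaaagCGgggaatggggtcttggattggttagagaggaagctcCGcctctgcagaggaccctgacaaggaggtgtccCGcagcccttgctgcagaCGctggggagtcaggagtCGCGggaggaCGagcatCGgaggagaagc
Grb10 (chr11:12037371-12037670, minus strand): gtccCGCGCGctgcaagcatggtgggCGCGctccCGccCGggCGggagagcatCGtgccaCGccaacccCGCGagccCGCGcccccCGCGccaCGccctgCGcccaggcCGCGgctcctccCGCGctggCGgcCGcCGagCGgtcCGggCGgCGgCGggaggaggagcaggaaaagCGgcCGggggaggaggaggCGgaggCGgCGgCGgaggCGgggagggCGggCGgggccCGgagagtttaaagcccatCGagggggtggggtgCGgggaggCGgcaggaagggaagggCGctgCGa
Plagl1 (chr10:13090582-13090881, plus strand): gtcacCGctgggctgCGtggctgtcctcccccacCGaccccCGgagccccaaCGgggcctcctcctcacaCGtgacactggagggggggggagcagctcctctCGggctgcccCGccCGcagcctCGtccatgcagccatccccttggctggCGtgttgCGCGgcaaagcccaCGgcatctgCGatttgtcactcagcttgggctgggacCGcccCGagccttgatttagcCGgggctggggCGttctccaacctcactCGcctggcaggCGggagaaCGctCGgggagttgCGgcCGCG
Dlk1 (chr12:109452573-109452872, plus strand): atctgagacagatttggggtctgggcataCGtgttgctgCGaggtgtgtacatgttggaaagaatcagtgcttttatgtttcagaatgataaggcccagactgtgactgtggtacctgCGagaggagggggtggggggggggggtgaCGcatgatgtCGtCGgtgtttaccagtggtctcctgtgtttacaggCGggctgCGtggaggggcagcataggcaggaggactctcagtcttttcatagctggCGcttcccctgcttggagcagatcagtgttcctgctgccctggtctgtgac
Meg3 (chr12:109540746-109541045, plus strand): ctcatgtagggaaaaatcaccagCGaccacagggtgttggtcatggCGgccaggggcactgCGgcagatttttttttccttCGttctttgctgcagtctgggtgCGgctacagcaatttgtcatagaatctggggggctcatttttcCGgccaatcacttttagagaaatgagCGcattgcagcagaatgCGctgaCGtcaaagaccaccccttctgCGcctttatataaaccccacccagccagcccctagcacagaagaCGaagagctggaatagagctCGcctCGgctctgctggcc

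The Grb10 region held 45 CpG pairs, at percentile 98.1 of the 32851 start regions in the table, whose median was 7. Plagl1 held 26 pairs (percentile 83.1), Peg3 and Meg3 held 13 each (percentile 62.1), and Dlk1 held 9 (percentile 54.2). Grb10 and Meg3 each had a second start region in the table, with 9 and 1 CpG pairs, which is not shown. A search on both strands for the cyclic AMP response element TGACGTCA, present in 1.79% of all start regions, matched Meg3 57 bases before its start and Peg3 178 bases before its start. The sequence GGGGCCCC, which resembles the GC-rich sites bound by the Plagl1 protein, matched Peg3 201 bases before its start and is present in 1.08% of all regions. The TATA element TATAAA (13.6% of all regions) matched Meg3 25 bases before its start, and again on the other strand 29 bases before it, where both matches overlap. GCCATNTT, the core of the site bound by YY1, is present in 6.05% of all regions and matched none of the regions of these 8 genes. These motifs were chosen with the sequences in view, and a match is a description of letters, not of binding.

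Per length of exon, the 10 genes ranged from among the more abundant transcripts to the edge of detection. Cdkn1c was highest at 21.3 CPM per kb over the 7 libraries (19.8 ± 1.44 in HFD and 22.4 ± 5.60 in LFD, SD), above 86.3% of the 14304 genes tested. Peg3 (13.4 CPM per kb) and Grb10 (13.2) came next and did not differ in order beyond their spread, since Peg3 was above Grb10 in 3 of 7 libraries. Ndn (8.77) was above Mest (5.09) in 6 of 7 libraries, and Mest was above Plagl1 (4.60) in 4 of 7. The lowest of the 10 were Igf2, H19, Dlk1 and Meg3. Igf2 had 1.05 and H19 0.993 CPM per kb, with Igf2 above H19 in 3 of 7 libraries. Dlk1 had 0.381 CPM per kb, and Meg3, with 0.0924, was above only 1.03% of tested genes. The merged Meg3 exons are 18089 bases long because all annotated isoforms are merged, which lowers its value per length. Cdkn1c shares 625 exon bases with Gm44732, and Meg3 1228 with Gm26906, genes on the opposite strand with 0 counts in every library. Reads there cannot be assigned without strand information, and the effect on these levels was not tested.

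**Figure D1:**
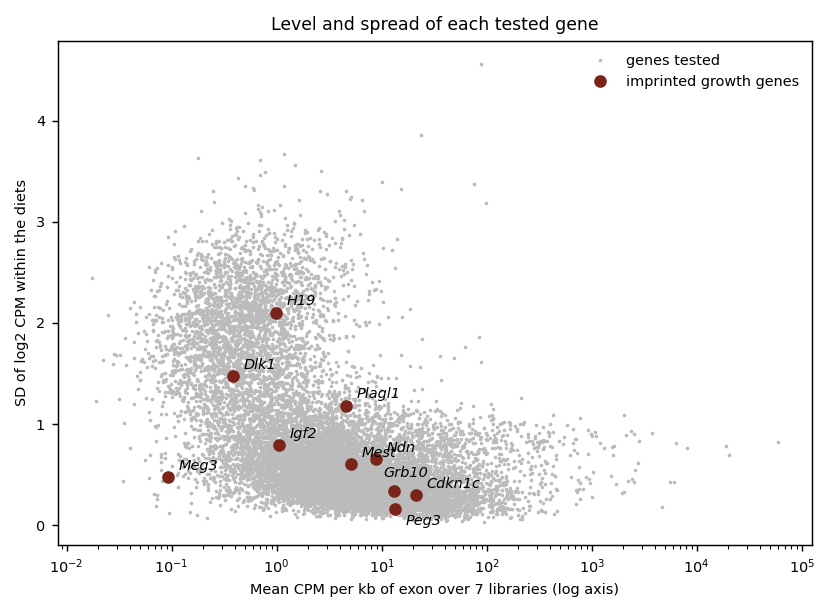
Mean level per kb of exon over the 7 libraries (log axis) against the SD of log2 CPM within the diets, for each of the genes tested (grey) and the 10 imprinted growth genes (dark red). Peg3, Grb10 and Cdkn1c lie at the high, steady end with SDs of 0.16 to 0.34, and H19 (2.10) and Dlk1 (1.47) lie at the low, variable end.

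The 10 genes also differed in how steady they were between libraries of 1 diet. Peg3 had a within-diet SD of 0.16 on the log2 CPM scale, and 3.26% of tested genes were steadier. Cdkn1c (0.30) and Grb10 (0.34) were steadier than most genes as well, with 16.9% and 22.2% of tested genes below them. Meg3 (0.48), Mest (0.61), Ndn (0.66) and Igf2 (0.79) were intermediate. Plagl1 (1.18), Dlk1 (1.47) and H19 (2.10) varied most, and 92.1% of tested genes had a smaller SD than H19. Relative to its mean log2 CPM, H19 was at -4.10 in LFD 3, against -0.56 to 1.81 in the other libraries. Plagl1 was at -2.87 in LFD 3, against -0.12 to 1.14 elsewhere. The SDs of H19 and Plagl1 thus drew much on that library. Genes with few counts had larger SDs in general, as the plot of level and spread shows.

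All 10 genes passed the filter on low counts and were tested between the diets with edgeR's quasi-likelihood test. None passed an adjusted p of 0.05, where 0.035% of all tested genes did, and none had an unadjusted p under 0.05, where 7.53% did. DESeq2 called 0 of the 10 as well, against 2.03% of all tested genes. In log2 fold change 5 genes were above 0 and 5 below, with a median of -0.02, and 51.5% of all tested genes were above 0 with a median of 0.02. The libraries of the diets did not overlap for 1 gene, Plagl1, which was higher in HFD, where 8.4% of all tested genes were higher without overlap. No member was lower without overlap, against 3.47% of all tested genes.

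**Figure D2:**
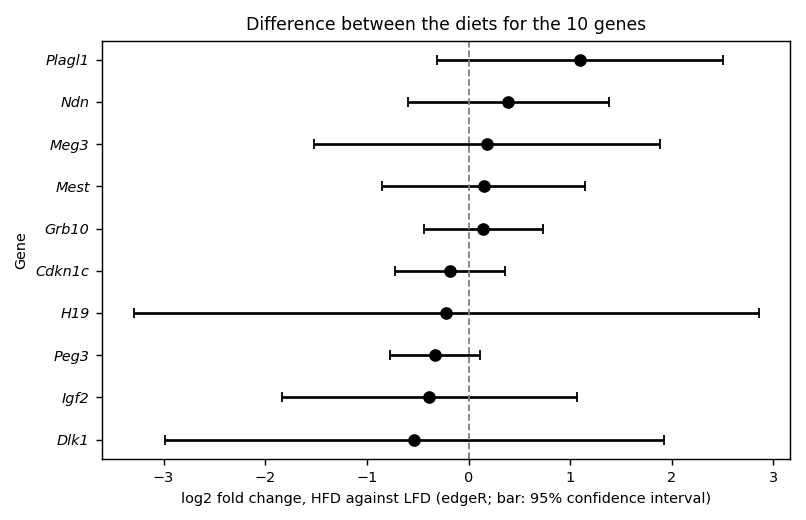
Log2 fold change of each of the 10 genes in HFD against LFD from edgeR's quasi-likelihood test, with 95% confidence intervals. Every interval includes 0, from the narrow ones of Peg3 (-0.77 to 0.11) and Cdkn1c (-0.73 to 0.36) to the wide one of H19 (-3.30 to 2.86).

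Igf2, the insulin-like growth factor that drives fetal growth through the receptors for IGF1 and insulin, lies on chromosome 7 (142650766 to 142666816, minus strand, ENSMUSG00000048583). It measured 5.84, 4.35 and 5.21 CPM in HFD 2, 3 and 4, and 14.7, 2.94, 5.42 and 3.76 CPM in LFD 1, 2, 3 and 4. The HFD libraries lay close together inside the LFD range, and LFD 1 alone stood high. Mean levels were 5.13 ± 0.749 CPM in HFD (SD, n = 3) and 6.70 ± 5.41 CPM in LFD (SD, n = 4), with a log2 fold change of -0.39 (95% interval -1.84 to 1.07, edgeR adjusted p = 0.898). Without LFD 1 the log2 fold change was 0.35 (edgeR adjusted p = 0.780), so the sign rested on that library. LFD 1 also had the highest sum of muscle and satellite cell markers, 566 CPM, against 161 to 167 CPM in HFD and 266 to 382 CPM in the other LFD libraries. Of these 10 markers 9 were detected, among them Pax7, Myf5 and Myod1 in every library, and Myh4 was at 0 throughout. The part of these cells in the Igf2 values was not tested.

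H19, a noncoding RNA that restrains growth in mice and holds the precursor of a microRNA in its exon, is transcribed 72.6 kb from Igf2 (142575529 to 142578143, minus strand, ENSMUSG00000000031). Its values were 3.18, 2.51 and 1.003 CPM in HFD 2, 3 and 4, and 1.68, 3.13, 0 and 5.59 CPM in LFD 1, 2, 3 and 4. The extremes on both sides were LFD libraries. LFD 3 had 0 H19 counts, which allows up to 0.187 CPM (3 counts), while the next lowest library, HFD 4, had 21 counts (95% counting interval 0.621 to 1.53 CPM). Such limits describe counting error alone. Between diets H19 had a log2 fold change of -0.22 with a 95% interval of -3.30 to 2.86 (edgeR adjusted p = 0.975), and it turned to 0.48 without LFD 4 and to 0.13 without HFD 4. Nctc1, a noncoding gene 16.9 kb from H19 that shares muscle enhancers with it, was also at 0 in LFD 3, with 37 to 76 counts in HFD and 39 to 46 counts in the other LFD libraries. Mrpl23, a mitochondrial ribosomal protein gene nearby, had a log2 fold change of -0.08 (edgeR adjusted p = 0.975).

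Dlk1, a membrane protein with EGF-like repeats that keeps preadipocytes and skeletal progenitors from maturing, lies on chromosome 12 (109452823 to 109463336, plus strand, ENSMUSG00000040856). It measured 3.11, 1.59 and 0.430 CPM in HFD 2, 3 and 4, and 0.312, 2.57, 1.93 and 5.14 CPM in LFD 1, 2, 3 and 4. These values came from 8 to 104 counts, and the counting intervals of the lowest library, LFD 1 (0.135 to 0.615 CPM), and the highest, LFD 4 (4.20 to 6.23 CPM), lay far apart. HFD 4 and LFD 1 were low together, at 9 and 8 counts. For Dlk1 the log2 fold change was -0.53 (95% interval -2.99 to 1.92, edgeR adjusted p = 0.915), and 0.11 without LFD 4. Adipocyte markers, which accompany the end of Dlk1 expression in preadipocytes, summed to 54.2 to 75.9 CPM in HFD and 13.2 to 42.7 CPM in LFD, with Cidec, Lep and Retn at 0 in every library. That sum was carried by Lpl (28.0 to 51.3 CPM in HFD and 11.4 to 20.1 CPM in LFD) and by Adipoq (21.4 to 26.0 CPM in HFD and 0.0390 to 19.5 CPM in LFD), which the marrow stroma list also holds. Other members did not follow, since Fabp4 measured 0.874 to 1.64 CPM in HFD and 1.83 to 9.79 CPM in LFD, and Plin1 had counts only in HFD 4. The part of these cells in the Dlk1 values was not tested.

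Meg3, a noncoding RNA made from the mother's copy, starts 77.7 kb from the end of Dlk1 (109541001 to 109571726, plus strand, ENSMUSG00000021268). It had 73, 19 and 40 counts in HFD 2, 3 and 4, and 39, 22, 24 and 39 counts in LFD 1, 2, 3 and 4. The LFD values lay within the HFD range, with means of 1.79 ± 0.824 CPM in HFD (SD, n = 3) and 1.58 ± 0.240 CPM in LFD (SD, n = 4). For Meg3 the log2 fold change was 0.18 (95% interval -1.52 to 1.89, edgeR adjusted p = 0.959), and -0.17 without HFD 2. Rian, a noncoding RNA downstream of Meg3, measured 1.05 to 2.03 CPM in HFD and 0.376 to 1.73 CPM in LFD. Dio3, a thyroid hormone deiodinase of the same locus, had 2 to 78 counts in HFD and 0 to 44 in LFD, and Begain, a neighbour of Dlk1, had 0 to 15 counts in HFD and 0 to 12 in LFD. None of the 3 passed edgeR's test.

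**Figure D3:**
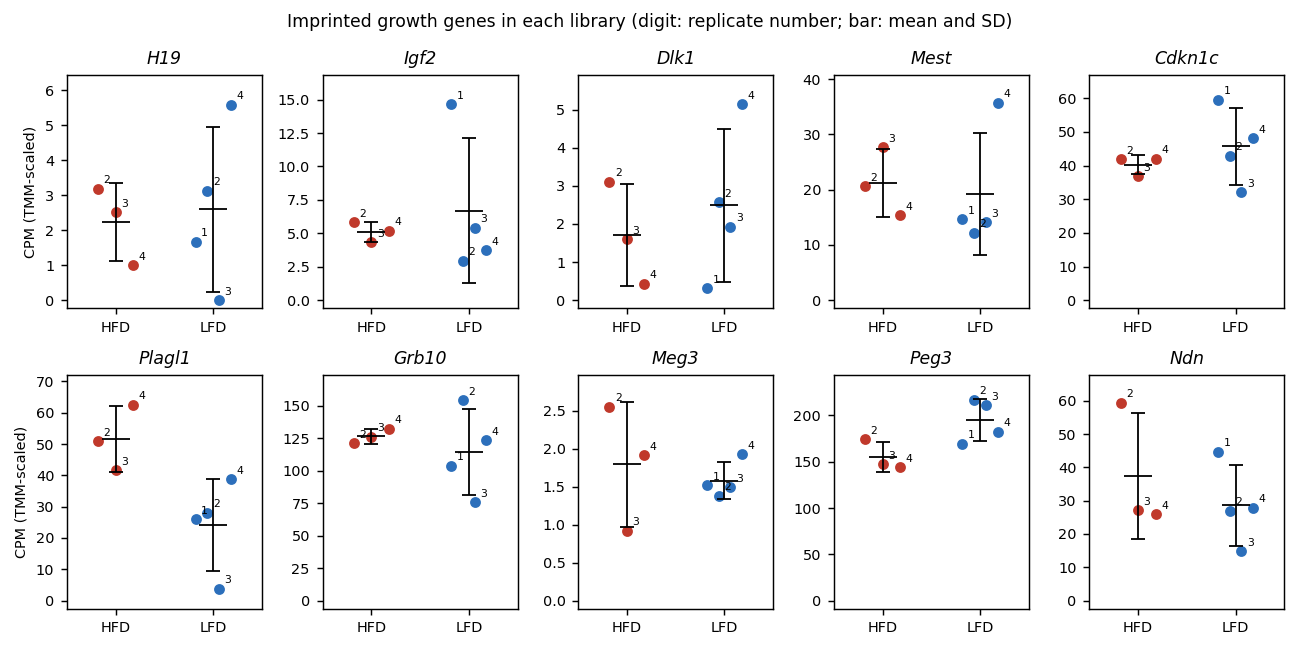
CPM of the 10 genes in each library, with HFD left (red) and LFD right (blue); digits give the replicate number and bars the mean and SD of each diet (n = 3 and n = 4). The diets overlap for 9 genes, and for Plagl1 the HFD libraries (41.6 to 62.6 CPM) lie above the LFD libraries (3.80 to 38.7 CPM).

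Grb10, an adaptor protein that binds the insulin and IGF1 receptors and damps their signal, was among the 2 most abundant members by CPM (chromosome 11, 11930508 to 12038683, minus strand, ENSMUSG00000020176). It measured 121, 126 and 132 CPM in HFD 2, 3 and 4, and 104, 154, 75.8 and 124 CPM in LFD 1, 2, 3 and 4. All 3 HFD libraries sat inside the LFD range. The means were 127 ± 5.67 CPM in HFD (SD, n = 3) and 114 ± 33.0 CPM in LFD (SD, n = 4), with a log2 fold change of 0.15 (95% interval -0.43 to 0.73, edgeR adjusted p = 0.904). It was -0.01 without LFD 3, the lowest library. The interval lay within 1 log2 unit of 0 in both directions. Its neighbours Ddc (dopa decarboxylase), Fignl1 (a DNA repair factor) and Cobl (an actin nucleator) had log2 fold changes of -2.56, -0.68 and -0.18, and none passed edgeR's test (adjusted p = 0.728, 0.731 and 0.962). Ddc rested on 0 to 15 counts in HFD and 0 to 43 in LFD.

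Cdkn1c, an inhibitor of cyclin-dependent kinases that halts the cycle of growth plate chondrocytes as they enlarge, lies on chromosome 7 (143458339 to 143461050, minus strand, ENSMUSG00000037664). It measured 41.9, 36.9 and 42.1 CPM in HFD 2, 3 and 4, and 59.6, 42.9, 32.1 and 48.2 CPM in LFD 1, 2, 3 and 4. The HFD values again lay inside the LFD range. For Cdkn1c the log2 fold change was -0.18 (95% interval -0.73 to 0.36, edgeR adjusted p = 0.869), and it was below 0 in each of the 17 alternative fits (-0.31 to -0.01). Of 15 G1 regulators that act beside it, 4 had log2 fold changes above 0 and 11 below (median -0.55), and 0 passed edgeR's adjusted threshold. E2f1, the transcription factor that opens S phase, had -0.96 (edgeR adjusted p = 0.661), and Cdkn1b, a related inhibitor, had -0.87. Cycling cell markers (10 of 10 detected) summed to 1090 to 3844 CPM in HFD and 2085 to 5992 CPM in LFD. The part of cycling cells in these values was not tested.

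Plagl1, a zinc finger transcription factor that regulates other imprinted genes in mouse embryos, showed the largest positive difference of the 10 (chromosome 10, 13060504 to 13131694, plus strand, ENSMUSG00000019817). It measured 50.8, 41.6 and 62.6 CPM in HFD 2, 3 and 4, and 26.0, 28.1, 3.80 and 38.7 CPM in LFD 1, 2, 3 and 4. Every HFD library was above every LFD library, with HFD 3 and LFD 4 close together. The means were 51.7 ± 10.5 CPM in HFD (SD, n = 3) and 24.2 ± 14.7 CPM in LFD (SD, n = 4). The log2 fold change was 1.10 (95% interval -0.31 to 2.50, edgeR adjusted p = 0.693), so the difference did not hold up against the spread between libraries. The sums of granulocyte, monocyte and marrow stroma markers, and Ptprc, were split by diet in the same direction, with the ranges given above. The part of these cells in the Plagl1 values was not tested. LFD 3 set much of that spread, with 61 counts against 449 to 1454 in the other libraries. Without LFD 3 the log2 fold change was 0.75 with an unadjusted p of 0.0206, and the adjusted p was 0.586 (edgeR). Of 8991 genes with a mean of at least 8 CPM, 144 were as far below their own mean in LFD 3 as Plagl1 was, against 2 to 8 genes in the HFD libraries and 88, 86 and 8 in LFD 1, LFD 2 and LFD 4. Its neighbours Phactr2, Sf3b5 and Ltv1 had log2 fold changes of 0.28, 0.12 and 0.30, and none passed.

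Peg3, a large zinc finger protein expressed from the father's copy, had the most counts of the 10, 3017 to 4982 per library (chromosome 7, 6703892 to 6730431, minus strand, ENSMUSG00000002265). It measured 174, 147 and 144 CPM in HFD 2, 3 and 4, and 170, 217, 211 and 182 CPM in LFD 1, 2, 3 and 4. HFD 2 and LFD 1 crossed, and the other HFD libraries lay below all LFD libraries. The means were 155 ± 16.5 CPM in HFD (SD, n = 3) and 195 ± 22.7 CPM in LFD (SD, n = 4). The log2 fold change was -0.33 (95% interval -0.77 to 0.11, edgeR adjusted p = 0.694). It stayed between -0.43 and -0.27 in each of the 17 alternative fits and passed the adjusted threshold in none of them.

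Mest, a hydrolase of the endoplasmic reticulum that rises as fat tissue expands in mice, lies on chromosome 6 (30723547 to 30748465, plus strand, ENSMUSG00000051855). It measured 20.6, 27.7 and 15.4 CPM in HFD 2, 3 and 4, and 14.7, 12.2, 14.1 and 35.7 CPM in LFD 1, 2, 3 and 4. LFD 4 was the highest of all 7 libraries, and the other LFD libraries were below all HFD libraries. For Mest the log2 fold change was 0.15 (95% interval -0.85 to 1.14, edgeR adjusted p = 0.945), and it turned to -0.02 without LFD 2 and to -0.07 without HFD 3. Without LFD 4 it was 0.64, with an unadjusted p of 0.0901 (edgeR). Mest shares 912 exon bases with Copg2 on the opposite strand, and reads there cannot be assigned without strand information. Copg2, which encodes a coat protein of transport vesicles, had 378 to 725 counts in HFD and 351 to 561 counts in LFD. Cep41, a centrosomal protein gene nearby, measured 9.37 to 12.8 CPM in HFD and 4.73 to 15.4 CPM in LFD.

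Ndn encodes necdin, a MAGE family protein that restrains E2F1 and cell division (chromosome 7, 62346569 to 62350262, plus strand, ENSMUSG00000033585). It measured 59.4, 27.0 and 26.0 CPM in HFD 2, 3 and 4, and 44.6, 26.9, 14.9 and 27.8 CPM in LFD 1, 2, 3 and 4. The highest library of each diet, HFD 2 and LFD 1, also had the lowest erythroid sum of its diet (22159 and 92083 CPM), and the part of red cell RNA was not tested. The log2 fold change was 0.39 (95% interval -0.60 to 1.38, edgeR adjusted p = 0.831). It was -0.11 without HFD 2 and -0.45 with the erythroid share as a covariate. Its paternally expressed neighbours in the Prader-Willi syndrome region were sparse. Magel2 had 41, 6 and 0 counts in HFD 2, 3 and 4 and 0 in each LFD library, Mkrn3 had 12, 8 and 0 counts and 0 in each LFD library, and both failed the filter on low counts. Peg12, a paternally expressed gene nearby, ran the other way, with 6 to 25 counts in HFD and 11 to 42 counts in LFD (log2 fold change -1.41, edgeR adjusted p = 0.728). Snrpn, a splicing protein gene of that region, measured 2.80 to 4.16 CPM in HFD and 1.18 to 4.92 CPM in LFD. Ube3a, a ubiquitin ligase imprinted in neurons, measured 35.7 to 41.4 CPM in HFD and 38.0 to 55.8 CPM in LFD (log2 fold change -0.37, edgeR adjusted p = 0.693).

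**Figure D4:**
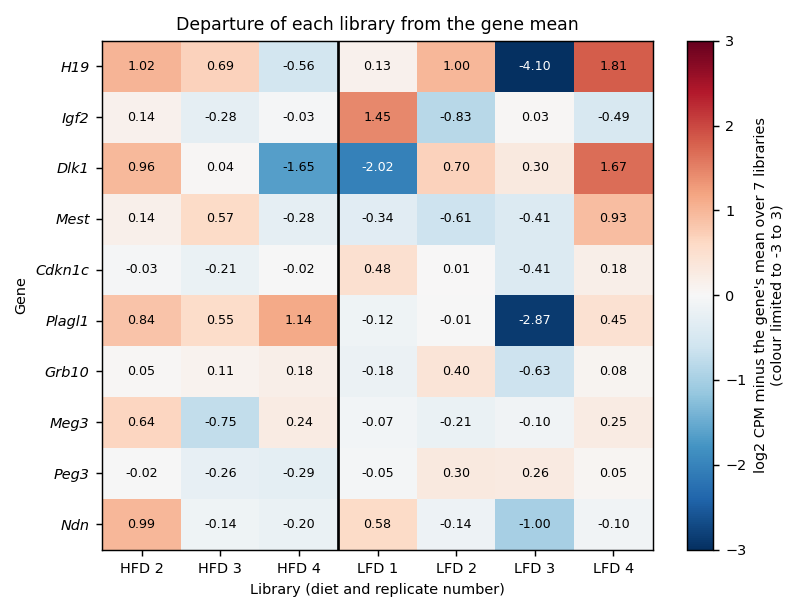
Log2 CPM of each of the 10 genes minus its mean over the 7 libraries, with HFD libraries left of the black line and LFD libraries right of it. LFD 3 holds the lowest value of 5 genes, the lowest being -4.10 for H19, and no column is high or low for all 10 genes.

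The genes did not follow 1 common order of libraries. LFD 4 held the highest value of 3 genes, HFD 2, LFD 1 and LFD 2 of 2 each, and HFD 4 of 1. LFD 3 held the lowest value of 5 genes. The summed level of the 10 was 483, 416 and 431 CPM in HFD 2, 3 and 4, and 437, 491, 361 and 473 CPM in LFD 1, 2, 3 and 4, so the HFD range lay inside the LFD range. Peg3 made up 33.4% to 36.1% of that sum in HFD and 38.6% to 58.6% in LFD. Plagl1 made up 9.99% to 14.5% in HFD and 1.05% to 8.19% in LFD. Peg3 and Plagl1 were thus split by diet in their shares of the sum, which are not independent of each other and were not tested. In CPM Peg3 overlapped between the diets, at 174 in HFD 2 and 170 in LFD 1. A share of this sum exists only for the 10 genes, so no figure over all tested genes stands beside it.

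Partners that share a control region but are made from opposite parental copies were compared within each library, so that scaling between libraries does not enter. The log2 ratio of H19 to Igf2 counts was -0.87, -0.79 and -2.35 in HFD 2, 3 and 4, and -3.11, 0.09, -7.45 and 0.57 in LFD 1, 2, 3 and 4. The HFD ratios lay inside the LFD range. The means differed by 1.14 (-1.34 ± 0.88 in HFD and -2.48 ± 3.70 in LFD, SD, exact permutation p = 0.771, two-sided, adjusted p = 0.771 over 3 ratios). Without LFD 3, whose ratio rests on 0 H19 counts, the difference turned to -0.52.

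The log2 ratio of Meg3 to Dlk1 was -0.28, -0.78 and 2.09 in HFD 2, 3 and 4, and 2.22, -0.88, -0.36 and -1.40 in LFD 1, 2, 3 and 4. Meg3 exceeded Dlk1 in HFD 4 and LFD 1 and was below it in the other libraries. The means differed by 0.45 (0.34 ± 1.54 in HFD and -0.11 ± 1.61 in LFD, SD, exact permutation p = 0.600, two-sided, adjusted p = 0.771), and by -0.42 without HFD 4.

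Kcnq1ot1, the paternal noncoding RNA that silences the domain around Cdkn1c, lies 161.8 kb from it (143203458 to 143296549). The log2 ratio of Cdkn1c to Kcnq1ot1 was 3.27, 2.41 and 2.32 in HFD 2, 3 and 4, and 2.86, 1.87, 8.43 and 3.01 in LFD 1, 2, 3 and 4. LFD 3 stood apart because it had 1 Kcnq1ot1 count, against 124 to 176 in HFD and 121 to 210 in the other LFD libraries. The means differed by -1.37 (2.67 ± 0.52 in HFD and 4.04 ± 2.97 in LFD, SD, exact permutation p = 0.743, two-sided, adjusted p = 0.771) and by 0.09 without LFD 3. The smallest p that the 35 assignments of 7 libraries allow is 0.0286.

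**Figure D5:**
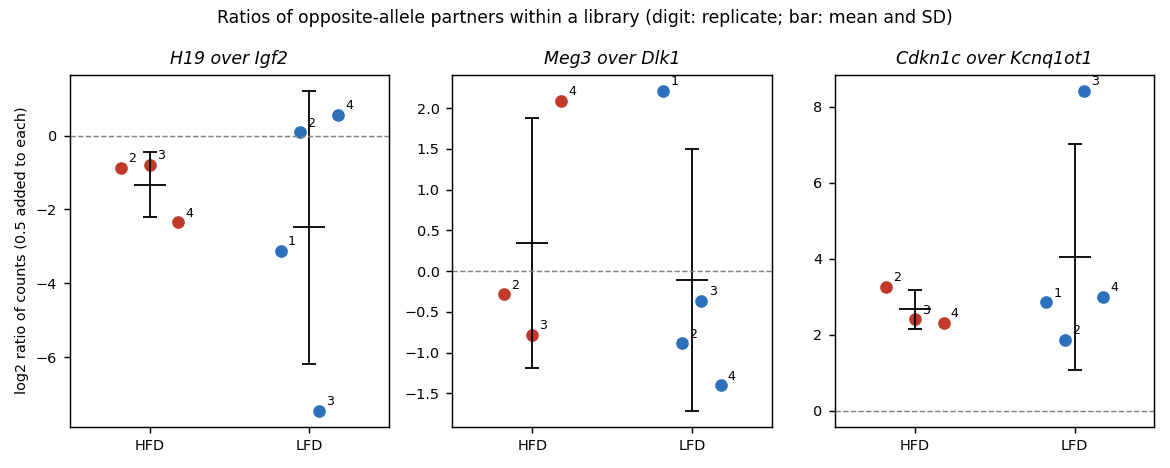
Log2 ratio of counts (0.5 added to each count) of H19 to Igf2, Meg3 to Dlk1 and Cdkn1c to Kcnq1ot1 in each library, HFD left and LFD right; digits give the replicate number and bars the mean and SD. The diets overlap for all 3 ratios, and LFD 3 is the extreme library for H19 to Igf2 (-7.45) and for Cdkn1c to Kcnq1ot1 (8.43).

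Of 64 further imprinted genes and locus neighbours, 47 passed the filter on low counts and 6 had 0 counts in every library. By log2 fold change 28 were above 0 and 19 below, with a median of 0.12 against 0.02 over all tested genes. None passed edgeR's adjusted threshold. At an unadjusted edgeR p under 0.05, 0 were higher (5.18% of all tested genes) and 3 were lower (2.35%). DESeq2 called 1 of the 47, where it called 2.03% of all tested genes. Without overlap between the diets, 0 of the 47 were higher in HFD (8.4% of all tested genes). Lower without overlap were 2, Zim1 and Tssc4 (3.47% of all tested genes). Among the 22 tested genes listed as imprinted outside these loci, Dcn (decorin, a collagen-binding proteoglycan) was by far the most abundant. It measured 3795 to 4484 CPM in HFD and 1812 to 5778 CPM in LFD. The counts do not show whether these 22 genes are imprinted in the cells sorted here. The 2 with the smallest p were Trappc9, a vesicle tethering factor (log2 fold change -0.59, edgeR adjusted p = 0.651), and Ampd3, the AMP deaminase of red cells (-0.73, edgeR adjusted p = 0.693).

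The gene called by DESeq2 was Zim1, a maternally expressed zinc finger gene 7.44 kb from Peg3 (chromosome 7, 6671269 to 6696450, minus strand, ENSMUSG00000002266). It had 0, 3 and 0 counts in HFD 2, 3 and 4, and 205, 43, 111 and 33 counts in LFD 1, 2, 3 and 4. Every HFD library was below every LFD library. On the scale of TMM-adjusted library totals, the pooled HFD counts were 0.00849 of the pooled LFD counts (95% counting interval 0.00174 to 0.0250). That interval describes counting error alone and leaves out the spread between libraries. With that spread the log2 fold change was -6.54 (edgeR, 95% interval -10.1 to -3.02, not adjusted for the number of genes tested). The adjusted p was 0.281 by edgeR and 5.53e-05 by DESeq2, and it was called in 1 of 17 alternatives, DESeq2. The sum of muscle and satellite cell markers was likewise lower in each HFD library than in any LFD library (161 to 167 CPM in HFD and 266 to 566 CPM in LFD). Des, Myf5 and Myod1 were split as the sum was, while Pax7, Myog, Acta1, Myh1, Ckm and Chrna1 overlapped between the diets. The part of muscle and satellite cells, of sex and of diet in the Zim1 counts was not tested. Usp29, a ubiquitin protease gene that starts 146 bases from Peg3 and is also paternally expressed, had 0 to 38 counts in HFD and 0 to 23 in LFD.

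In the Cdkn1c domain, Nap1l4, a histone chaperone, measured 104 to 188 CPM in HFD and 184 to 281 CPM in LFD (log2 fold change -0.68, edgeR adjusted p = 0.615). With the erythroid share as a covariate the Nap1l4 value was -0.23 (edgeR adjusted p = 0.9993, range over 17 alternatives 0.193 to 0.9999). Tssc4, a splicing factor of the same domain, measured 25.2 to 34.8 CPM in HFD and 36.6 to 48.9 CPM in LFD and did not overlap (log2 fold change -0.46, edgeR adjusted p = 0.679). Phlda2, a brake on placental growth, had 0 to 23 counts in HFD and 0 to 11 in LFD and failed the filter. Osbpl5 (63.7 to 78.4 CPM in HFD and 46.4 to 83.1 CPM in LFD) and Cd81 (326 to 430 CPM in HFD and 258 to 507 CPM in LFD) overlapped between the diets.

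Signalling partners of Igf2 and Grb10 were split. Of 15 tested IGF and insulin genes, 9 were above 0 in log2 fold change and 6 below (median 0.30), 0 passed edgeR's adjusted threshold, and DESeq2 called 1, Igfbp4, where it called 2.03% of all tested genes. Igfbp4, a secreted IGF binding protein, measured 361, 302 and 268 CPM in HFD 2, 3 and 4, and 44.2, 81.5, 37.3 and 66.0 CPM in LFD 1, 2, 3 and 4, without overlap. Its log2 fold change was 2.44 (edgeR adjusted p = 0.0830), and it was called in 3 of 17 alternatives, namely DESeq2 (adjusted p = 1.14e-10), limma-voom (0.0222) and edgeR with every gene that had at least 1 count (0.0458). The sums of granulocyte, monocyte and marrow stroma markers had the same split. The part of these cells in the Igfbp4 values was not tested. Igfbp3, the main IGF carrier in blood, had 1.35 (edgeR adjusted p = 0.651). Igf1r, the receptor that Igf2 acts through, measured 8.29 to 17.3 CPM in HFD and 19.2 to 23.2 CPM in LFD without overlap (log2 fold change -0.65, edgeR adjusted p = 0.683). Igf2r, an imprinted receptor that clears Igf2, measured 47.2 to 75.0 CPM in HFD and 28.4 to 95.5 CPM in LFD. Igf2bp2, an RNA-binding protein that binds Igf2 transcripts, measured 3.24 to 6.45 CPM in HFD and 0 to 2.51 CPM in LFD without overlap (log2 fold change 2.01, edgeR adjusted p = 0.713). Thus 2 of the 15 were higher without overlap (Igfbp4, Igf2bp2), where 8.4% of all tested genes were. Lower without overlap was 1 (Igf1r), where 3.47% of all tested genes were. Both Igf2bp1, of the same family, and Lin28b had 0 counts in every library.

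Most of the listed factors that keep imprints in place were present in both diets. Of 12 listed, 9 were tested, with 2 above 0 in log2 fold change and 7 below (median -0.47), and 0 passed. Dnmt1, the maintenance DNA methyltransferase, measured 96.6 to 227 CPM in HFD and 113 to 324 CPM in LFD. Ctcf, the insulator protein that binds between Igf2 and H19, had a log2 fold change of -0.68 (edgeR adjusted p = 0.683), and Trim28, the partner of imprint-binding zinc finger proteins, had -0.55. Dppa3, which guards maternal imprints in the zygote, had 0 counts in every library. Zfp57 had 11 counts in HFD 4, 14 in LFD 2 and 0 in the other libraries. Ctcfl had 0 to 3 counts in HFD and 0 to 7 in LFD, and both failed the filter on low counts. Dnmt1 and Uhrf1 are also cycle genes, and cycling cell markers varied as given beside Cdkn1c.

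The genes whose centred log2 CPM over the 7 libraries lay nearest to 4 of the members were found among 8985 genes with a mean of at least 8 CPM. Nearest to Cdkn1c were Egln2, Ndufa12 and Camta1, with root mean square differences of 0.07 to 0.10 on the log2 scale. Nearest to Igf2 were Plekhb2, Hr and Mpv17 (0.20 to 0.23). Nearest to H19 was Pign (0.59), and nearest to Dlk1 was Stk11ip (0.61). The root mean square difference depends on how much a member varies, so its values for steady and variable members cannot be compared. With 7 libraries and this many genes searched, the likeness is a description of these libraries.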

How the data were processed

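Sorted cells were lysed for a SMART-Seq low-input kit and Nextera XT library preparation, per the labels' protocols. The deposited values are raw counts per Ensembl gene, which the authors did not normalize. Tools in the submitters' processing notes include STAR 2.5.2b and HTSeq 0.11.2, with the build mm10. How strand was treated and which annotation was counted is not stated there, and the kits do not mark strand. Symbols matched 42250 of 42687 identifiers. The identifiers without a symbol held at most 0.0216% of a library's counts. Coordinates and merged exon lengths came from GENCODE vM21 on that build, and start regions from RefSeq GRCm38.p6.

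Diets were compared with edgeR 4.0.16 in R 4.3.3 (quasi-likelihood test, TMM, filterByExpr, robust fitting, diet as sole term, Benjamini-Hochberg adjustment over 14304 genes, threshold 0.05). Fold changes are HFD against LFD, and log2 CPM used a prior count of 2. The procedure was tested on simulated data. Alternatives were DESeq2 1.42.0, limma 3.58.1 (voom with quality weights), other scaling, filters and thresholds, marker shares as covariates, a replicate block, and each library left out. Ratios had 0.5 added to each count. Every pair of libraries differed by more than sampling noise, with chi-square per degree of freedom of at least 57.3.

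The members, lists, motifs and tests were chosen with earlier results of these data known. All 10 members were named, then the 2 tested genes with the smallest p of each list, and any tested neighbour of an imprinted locus. Neighbours that failed the filter, genes at 0 and single genes of the marker lists were chosen after their values were seen. So were Dcn, Igf1r, Igf2r, Igf2bp2, Dnmt1, Zfp57 and Ctcfl.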

Additional observations from a re-analysis of the deposited data

Results flagged for a closer look

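Mest in LFD 4 measured 35.7 CPM, far above the other LFD libraries (12.2 to 14.7 CPM). It was singled out because the gap to the nearest of the other 3 libraries took up more of the group's range than Dixon's 95% critical value for 4 samples (0.829) allows. This test was run on 13 quantities in the LFD group, the CPM of the 10 genes and the 3 log2 ratios, and chance singles out about 1 in 20. Without LFD 4 the log2 fold change of Mest was 0.64 (edgeR unadjusted p = 0.0901), against 0.15 with it. The HFD group, with 3 libraries, was not tested.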

How the results depend on the processing

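No member was called under any alternative run. Against 5 genes called over the whole table, 10 were called at an adjusted p under 0.1, 8 with every gene that had at least 1 count, 0 with at least 10 counts in 4 libraries, 291 by DESeq2, 28 by limma-voom, 1 with the erythroid and 1 with the chondrocyte share as a covariate, and 1 to 6 with 1 library left out. Of 170 alternative log2 fold changes of the members 151 had the sign of the reported value and 19 did not, with adjusted p of 0.264 to 0.9999. Cdkn1c, Plagl1 and Peg3 changed sign in none. With the erythroid share Mest had -0.012, Meg3 -0.20 and Ndn -0.45, while Dlk1 moved to -1.98 and H19 to -1.12 without a change of sign. With the chondrocyte share Igf2 had 0.30, Mest -0.049, Meg3 -0.31 and Dlk1 -1.42. By limma-voom Igf2 had 0.033 and Meg3 -0.50. The cause of these changes was not tested. With 1 library left out the log2 fold changes ran from -0.61 to 0.48 for H19, -0.63 to 0.35 for Igf2, -1.29 to 0.11 for Dlk1, -0.073 to 0.64 for Mest, -0.005157 to 0.32 for Grb10, -0.17 to 0.51 for Meg3 and -0.11 to 0.70 for Ndn. The ratio differences ran from -0.52 to 2.16 (H19 to Igf2), -0.42 to 1.23 (Meg3 to Dlk1) and -2.10 to 0.089 (Cdkn1c to Kcnq1ot1), where the smallest p is 0.1 without an LFD library and 0.0667 without an HFD library.

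The replicate block (libraries 2 to 4 of each diet) called 0 genes, moved the median of all genes to 0.14 and gave 0.53 for H19 and 0.39 for Igf2. Libraries with the same number correlated at -0.10, 0.03 and -0.06 in their deviations, and neither the labels nor these values show that the numbers pair them. Depth limited H19, Dlk1 and Meg3 most, with 0 to 113 counts a library.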
